A study of Homo sapiens with 6 samples.

Results

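The genes described here are those of 3 families of axon guidance cues and their receptors: the ephrins with their Eph receptors, the semaphorins, and the plexins and neuropilins that bind semaphorins. Members were taken by symbol from the probe sets (groups of probes that measure 1 gene) to which the array annotation gives a single symbol. This found 54 probe sets for 51 of 18417 named genes, out of 33297 probe sets on the array: 13 Eph receptors, 8 ephrins, 19 semaphorins, 9 plexins and both neuropilins. A gene with several probe sets was represented by the brightest. EPHB2 and SEMA4C, which the RefSeq gene table also lists, were not analysed here. Of the 51 members, 43 lay above the filter that leaves out the lowest 25% of genes by mean level, at 4.28 on the log2 scale, and were tested among 13812 genes.

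RNA came from A172, T98G and U87MG, established lines of glioblastoma, an aggressive brain tumour. In the mimic group each line had been transfected with pre-miR338-5p, a precursor that delivers the microRNA miR-338-5p, and in the control group with a negative control oligonucleotide; cells were harvested 24 hours later. Each line gave 1 mimic array and 1 control array, so there were 3 arrays per group and 2 per line, and the labels do not say whether cultures were pooled. The p-values therefore measure only the spread between these arrays, and they do not describe the spread between cultures of 1 line. Levels are log2 RMA values, on which a difference of 1 is a doubling; they are compared between arrays for the same gene and never between genes.

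Eph receptors are receptor tyrosine kinases that bind ephrins on the surface of neighbouring cells, and both partners can signal, which often makes cells pull apart. Semaphorins are secreted or membrane-bound ligands for plexins; most secreted class 3 semaphorins first bind a neuropilin, which also serves as a co-receptor for vascular endothelial growth factor. Plexins act on the cytoskeleton and on adhesion. In gliomas both systems have been studied for their part in migration, invasion and the growth of vessels.

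The transfected microRNA is shown because a microRNA finds its targets mainly through its seed. The mature sequence, from RefSeq (GRCh38.p14, chr17:81125923-81125944, minus strand), is given 5′ to 3′ with the seed, bases 2 to 8, in capitals.
miR-338-5p: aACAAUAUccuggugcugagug
Its perfect seed match in a messenger RNA reads AUAUUGU. Which members carry that match was not analysed here, so none is described below as a target or as a non-target.

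The medians of the 6 arrays ran from 5.06 to 5.14. Over probe sets, Pearson's r was 0.992 or 0.993 between the mimic and the control array of a line and 0.954 to 0.962 between lines. Of the glial and stem-like markers, VIM (vimentin) averaged 12.63 in U87MG, 12.37 in A172 and 11.90 in T98G, while GFAP stood at 5.07, 5.22 and 5.37 in the same lines, OLIG2 at 4.25, 4.75 and 4.46, and S100B lay below the filter. IL13RA2, a receptor known from gliomas, averaged 7.0 in U87MG, 7.33 in A172 and 2.47 in T98G. Above the filter were 3 of 7 endothelial, 3 of 6 leukocyte, 4 of 5 neuronal, 0 of 3 oligodendrocyte and 4 of 5 epithelial markers measured, and none of these 14 passed the mimic test.

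The guidance genes differed widely between the cell lines. EFNB2, which encodes the membrane ligand ephrin-B2, was high in U87MG and lowest in T98G, and PLXND1, a plexin of blood vessels, was high in A172 and lowest in U87MG. SEMA3D, a secreted semaphorin, stood above the filter in A172 alone. In such bulk RNA, fewer expressing cells and less RNA per cell cannot be told apart. Of the 43 tested members, 34 differed between lines in limma's F test at an adjusted p under 0.05, or 79.1%, where 67.5% of all tested genes did. Line means lay at least 1 log2 unit apart as well in 21 of the 43 (48.8%), against 23.8% of all tested genes, and at least 2 apart in 8 (18.6%), against 7.89%. All 3 pairs of lines differed in 13 members (30.2%, against 19.6%). The median distance between the highest and the lowest line was 1.00 over the members and 0.54 over all tested genes.

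**Figure D1:**
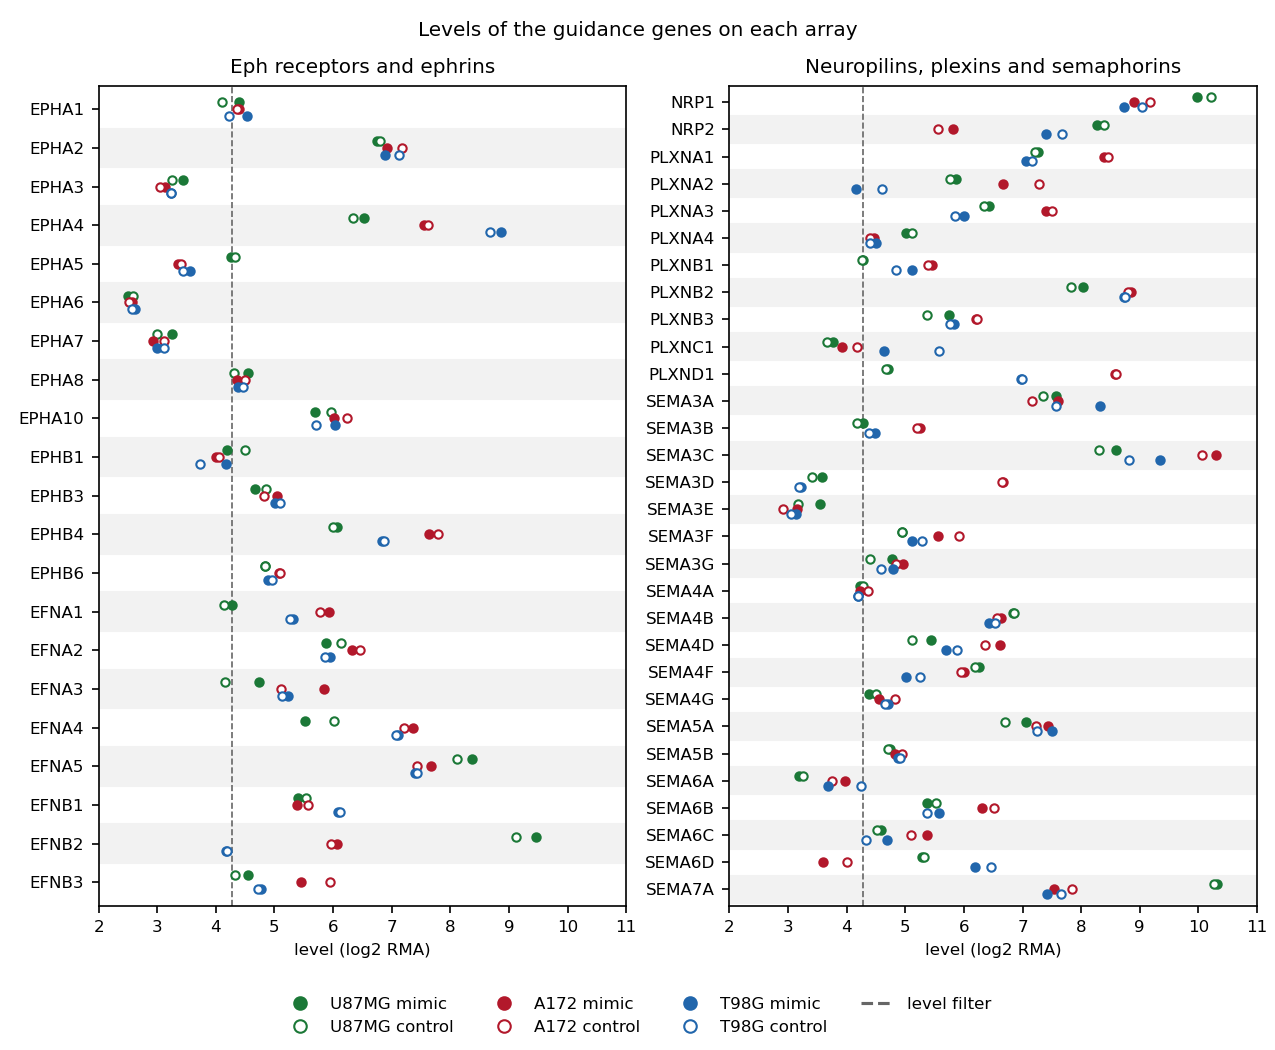
Level of each of the 51 guidance genes on each of the 6 arrays (log2 RMA); filled points are mimic arrays, open points control arrays, colours are lines and the dashed line is the level filter at 4.28. For EFNB2 the colours lie apart, at 9.47 and 9.11 in U87MG against 4.18 and 4.19 in T98G, whereas for genes such as EPHA8, whose line means lie 0.00 apart, they mix.

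A172 was the line in which these genes were most often highest. Among the 34 members called by the F test, 20 were highest in A172 (58.8%, against 35.5% of all genes so called), 8 in U87MG (23.5%, against 33.3%) and 6 in T98G (17.6%, against 31.2%). The lowest line was U87MG for 18 of the 34 (52.9%, against 33.8%). These ranks follow the line means alone, and the step to the next line did not always pass. For PLXNB2, counted as highest in A172, A172 minus T98G was 0.08 (limma pairwise adjusted p = 0.505). For EFNB1, counted as lowest in U87MG, U87MG minus A172 was -0.003 (adjusted p = 0.983). In U87MG against A172, 7 members were higher (26.9% of all tested genes were) and 24 lower (27.3%), and in A172 against T98G 19 were higher (25.1%) and 6 lower (25.4%). Between U87MG and T98G the split was more even, with 11 members higher in U87MG (23.5%) and 15 lower (23.6%). These lines still differed in 26 of the 43 members (60.5%, against 47.1% of all tested genes). The 34 calls are not independent of each other, since all rest on the same 6 arrays. The summed epithelial markers were highest in A172: their linear levels summed to 472 and 512 on the mimic and control array of U87MG, 3251 and 3314 in A172 and 742 and 835 in T98G, a sum carried by KRT8 and KRT18. KRT19 was also highest in A172 (5.35 in U87MG, 5.98 in A172 and 5.35 in T98G), while EPCAM was highest in U87MG (4.79, against 4.43 in A172 and 3.78 in T98G), and all 4 were called. NES, the stem-like marker nestin, averaged 5.51 in U87MG, 7.22 in A172 and 5.20 in T98G. CD44, from the same marker list, was lowest in A172 and was called, at 11.88 in U87MG, 11.51 in A172 and 11.71 in T98G. SOX2 averaged 4.20, 4.63 and 4.20 in U87MG, A172 and T98G and was not called. Leukocyte markers summed to 1327 and 1416 in U87MG, 398 and 433 in A172 and 396 and 399 in T98G, led by CD68, with PTPRC below the filter by its mean. CD14 went the other way and was called, at 4.05 in U87MG, 4.57 in A172 and 4.24 in T98G. ITGAM was also lowest in U87MG, at 4.42 against 4.62 in A172 and 4.82 in T98G, and was not called. Neuronal markers summed to 354 and 393 in U87MG, 194 and 183 in A172 and 141 and 141 in T98G, led by SNAP25 in U87MG, while SYT1 was highest in A172 (6.49, against 5.75 in U87MG and 4.31 in T98G). The part of these markers in the line differences was not tested.

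Of the 13 Eph receptors, 8 were tested and only EPHA4 and EPHB4 were called between lines, where 67.5% of all tested genes were. EPHA4, a receptor that binds ephrins of both classes, stood at 6.52 and 6.35 in U87MG (mimic, then control array, here and below), 7.55 and 7.61 in A172, and 8.87 and 8.68 in T98G. No pair of lines overlapped. EPHB4, the main receptor of ephrin-B2, stood at 6.06 and 6.0 in U87MG, 7.63 and 7.79 in A172, and 6.84 and 6.86 in T98G, so that it was highest in A172 and lowest in U87MG. EPHA2, a receptor of ephrin-A1 that is well known in glioblastoma, averaged 6.77 in U87MG, 7.05 in A172 and 7.01 in T98G and did not pass (adjusted p = 0.0712).

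The remaining Eph receptors gave no call between lines. Line means of EPHA1, EPHA8, EPHA10, EPHB3 and EPHB6 lay 0.00 to 0.30 apart; EPHA10 and EPHB6 encode receptors without kinase activity. EPHA3, EPHA5, EPHA6, EPHA7 and EPHB1 lay below the filter by their mean. EPHA5 reached 4.26 and 4.33 in U87MG, against 3.36 and 3.41 in A172 and 3.56 and 3.45 in T98G, a distance that carries no test here.

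All 8 ephrins, the ligands of these receptors, were called, where 67.5% of all tested genes were. EFNB2 stood at 9.47 and 9.11 in U87MG, 6.07 and 5.96 in A172, and 4.18 and 4.19 in T98G. U87MG lay 5.11 log2 units above T98G, or 34.5-fold. Both T98G arrays were below the filter level, so the size of that step is uncertain. Its receptor EPHB4 had the opposite order in U87MG and A172, U87MG being highest for the ligand and lowest for the receptor.

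The class A ephrins, which are tied to the membrane by a lipid anchor, were mostly lowest in U87MG. EFNA1 stood at 4.28 and 4.14 in U87MG, 5.94 and 5.77 in A172, and 5.32 and 5.26 in T98G. Its U87MG control array lay below the filter level. EFNA4 stood at 5.52 and 6.02 in U87MG, 7.37 and 7.21 in A172, and 7.11 and 7.07 in T98G. EFNA1 separated all 3 lines, whereas for EFNA4 the 0.20 between A172 and T98G did not pass (adjusted p = 0.358). EFNA3 averaged 4.45 in U87MG, 5.47 in A172 and 5.18 in T98G, and its 0.29 between A172 and T98G did not pass (adjusted p = 0.166). These 3 genes are neighbours on chromosome 1 with no other protein-coding gene between them in RefSeq, and each was lowest in U87MG. The mean of each was highest in A172, a step over T98G that passed for EFNA1 only. EFNA5 went the other way, at 8.24 in U87MG, 7.55 in A172 and 7.42 in T98G. EFNA2 averaged 6.01, 6.40 and 5.91 in the same lines. In class B, EFNB1 was highest in T98G, at 6.10 against 5.47 in U87MG and 5.48 in A172, and EFNB3 was highest in A172, at 5.70 against 4.44 in U87MG and 4.74 in T98G.

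Both neuropilins were highest in U87MG. NRP2, a co-receptor of SEMA3F and of vascular endothelial growth factor C, stood at 8.27 and 8.40 in U87MG, 5.82 and 5.56 in A172, and 7.41 and 7.67 in T98G. U87MG was 2.65 above A172, or 6.28-fold. The dimmer NRP2 probe set kept this order, at 7.39 and 7.57 in U87MG, 4.76 and 4.57 in A172, and 6.73 and 6.76 in T98G. NRP1, the co-receptor of SEMA3A, averaged 10.10 in U87MG, 9.04 in A172 and 8.89 in T98G; the 0.15 between A172 and T98G did not pass (adjusted p = 0.21).

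All 9 plexins, the signalling receptors, were called, where 67.5% of all tested genes were. Of these plexins, 7 were highest in A172, against 35.5% of all genes so called. PLXND1, the receptor of SEMA3E, stood at 4.71 and 4.67 in U87MG, 8.58 and 8.59 in A172, and 6.97 and 6.99 in T98G. U87MG was lower than A172 by 3.90 log2 units, and the 2 arrays of each line agreed to within 0.04. PLXNA2, a partner of neuropilins, stood at 5.86 and 5.76 in U87MG, 6.66 and 7.27 in A172, and 4.16 and 4.60 in T98G. Its T98G mimic array lay below the filter level. PLXNA3 stood at 6.44 and 6.34 in U87MG, 7.40 and 7.50 in A172, and 6.0 and 5.85 in T98G. The lines did not overlap for either gene.

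The other plexins differed less between the lines. PLXNC1, the receptor of SEMA7A, stood at 3.76 and 3.67 in U87MG, 3.91 and 4.17 in A172, and 4.64 and 5.57 in T98G, so it was above the filter in T98G alone and the T98G arrays lay far apart. PLXNA1 averaged 7.24 in U87MG, 8.43 in A172 and 7.11 in T98G. The class B plexins PLXNB1, PLXNB2 and PLXNB3 were each highest in A172 and lowest in U87MG by their means, with 0.65 to 1.14 between those lines. The step from A172 to T98G did not pass for PLXNB2 (limma pairwise adjusted p = 0.505), nor that from U87MG to T98G for PLXNB3 (0.153). PLXNB1, the receptor of SEMA4D, averaged 4.28 in U87MG, 5.42 in A172 and 4.98 in T98G, with the U87MG control array below the filter level. PLXNA4 was the only plexin highest in U87MG, at 5.06 against 4.44 in A172 and 4.45 in T98G.

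Of the 19 semaphorins 16 were tested and 13 were called (67.5% of all tested genes were), led by SEMA3D and SEMA7A. SEMA3D stood at 3.58 and 3.40 in U87MG, 6.67 and 6.65 in A172, and 3.23 and 3.19 in T98G. Only A172 lay above the filter, 3.45 above T98G, and since the other lines lay below it the size of that step is uncertain. SEMA7A, a semaphorin held by a lipid anchor that binds PLXNC1 and integrins, stood at 10.31 and 10.27 in U87MG, 7.54 and 7.84 in A172, and 7.42 and 7.66 in T98G. U87MG was 6.74-fold above T98G, and the 0.15 between A172 and T98G did not pass (adjusted p = 0.30).

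SEMA3C and SEMA6D also separated all 3 lines. SEMA3C, a secreted ligand that acts through neuropilins and has been studied in glioma stem cells, stood at 8.59 and 8.30 in U87MG, 10.30 and 10.06 in A172, and 9.34 and 8.82 in T98G. SEMA6D, a membrane ligand of PLXNA1, stood at 5.28 and 5.31 in U87MG, 3.59 and 4.01 in A172, and 6.18 and 6.47 in T98G. It was thus highest in T98G, and both A172 arrays lay below the filter level.

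Among the other class 3 genes, SEMA3B and SEMA3F lie near each other on chromosome 3 with 3 protein-coding genes between them. Both were highest in A172 (5.23 and 5.74) and lowest in U87MG (4.23 and 4.95), with T98G at 4.43 and 5.20. The step between U87MG and T98G did not pass for SEMA3B or SEMA3F (adjusted p = 0.0994 and 0.113). The U87MG arrays of SEMA3B both lay below the filter level. SEMA3A averaged 7.46 in U87MG, 7.39 in A172 and 7.95 in T98G, and the 0.07 between U87MG and A172 did not pass (adjusted p = 0.686). SEMA3D, SEMA3A and SEMA3E follow each other on chromosome 7 with no protein-coding gene between, and they were highest in A172, T98G and U87MG in that order of genes, SEMA3E below the filter throughout. SEMA3G lay 0.31 apart between its highest and lowest line and did not pass (adjusted p = 0.0635).

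In the membrane-bound classes, SEMA4D averaged 5.28 in U87MG, 6.49 in A172 and 5.78 in T98G, the order of its receptor PLXNB1 but also of EPHB4. The dimmer SEMA4D probe set lay at 4.87 and 4.59 in U87MG, 4.88 and 5.02 in A172, and 4.62 and 4.70 in T98G, and repeated neither the size of this step nor the order, with T98G lowest by its mean and its 2 arrays inside the range of U87MG. SEMA4F averaged 6.22 in U87MG, 5.98 in A172 and 5.13 in T98G. SEMA6B and SEMA6C were highest in A172 by 0.94 and 0.73 over T98G. SEMA4B and SEMA5A were called with line means 0.36 and 0.49 apart, and SEMA4G and SEMA5B, at 0.25 and 0.17, were not called. SEMA4A and SEMA6A lay below the filter.

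The adjusted p of the F test for the 14 genes given array by array ran from 7.83e-07 for EFNB2 to 0.00302 for PLXNC1. It rests on 2 residual degrees of freedom, which moderation over all genes brought to 6.56. SEMA3D and PLXNC1 passed the filter by their mean only through the line where each was highest. Their place among the members tested and called therefore depends on that line.

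**Figure D2:**
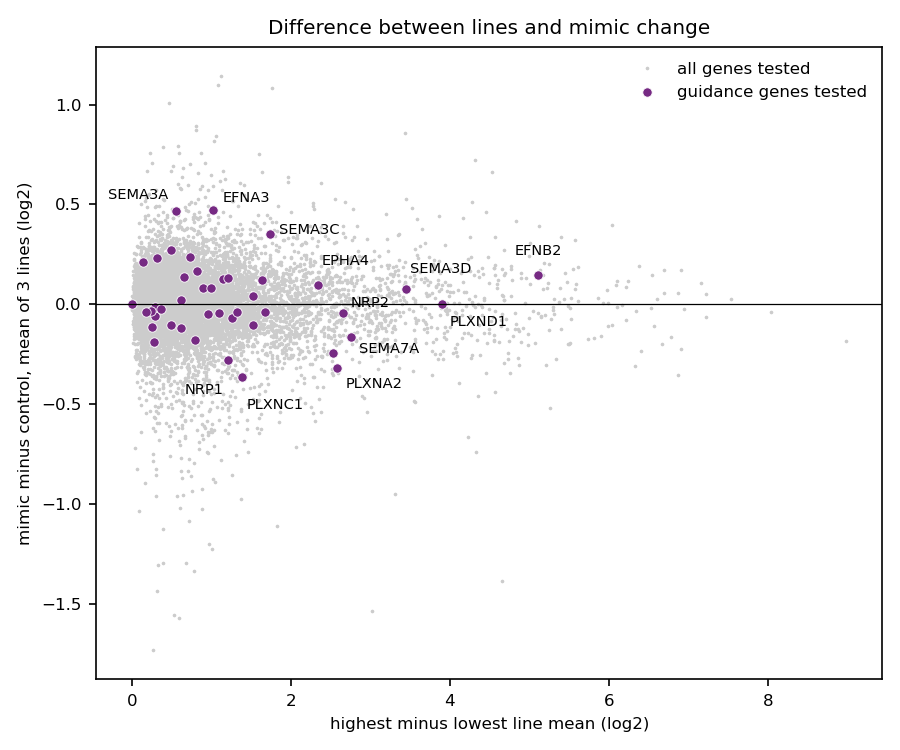
Distance between the highest and the lowest line mean (x axis, log2) against the mean change, mimic minus control, over 3 lines (y axis, log2) for the 43 tested guidance genes (purple) and all 13812 tested genes (grey). The guidance genes reach 5.11 on the x axis and stay between -0.36 and 0.47 on the y axis.

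The study asked which genes respond to miR-338-5p. In the guidance genes the mimic was followed by no change that passed: 0 of 43 reached an adjusted p under 0.05 in limma's paired fit (cell line as a block), where 1.11% of all tested genes did (0.319% higher and 0.789% lower), and the lowest adjusted p was 0.144, for SEMA3A. At an unadjusted p under 0.05 there were 9 of 43 members (20.9%), against 11.8% of all tested genes. Of these 9, 7 were higher with the mimic (16.3%, against 6.01%) and 2 lower (4.65%, against 5.83%). Changes ran from -0.36 for PLXNC1 to 0.47 for EFNA3, with 21 positive (48.8%, against 52.4% of all tested genes) and 22 negative. Their median was -0.01, against 0.01 over all tested genes, and the median size was 0.12, against 0.08.

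**Figure D3:**
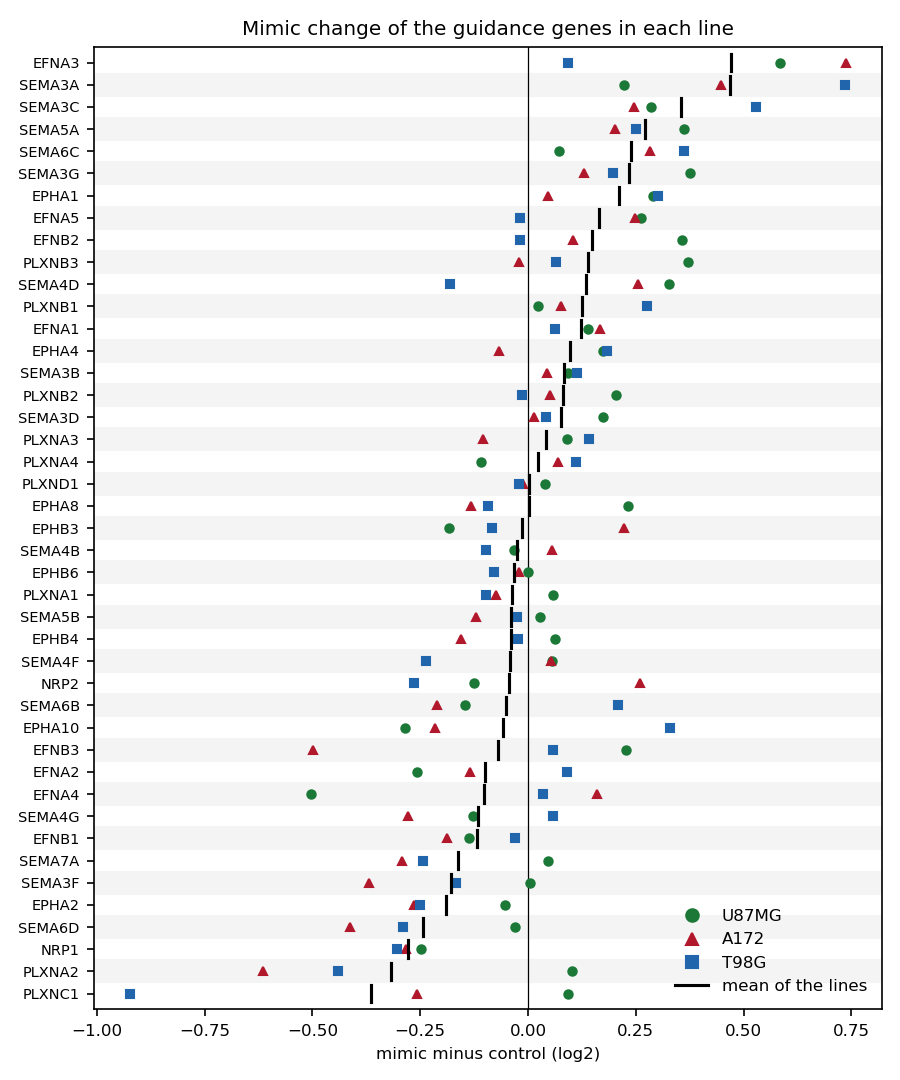
Change, mimic minus control (log2), in each line for the 43 tested guidance genes, sorted by the mean over the lines (black bars). The 3 lines of NRP1 lie together between -0.30 and -0.25, while those of PLXNC1 run from -0.92 to 0.09.

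The smallest p-values belonged to secreted semaphorins, which were higher with the mimic, and to their co-receptor NRP1, which was lower. SEMA3A, which repels growing axons through NRP1 and A-type plexins, had 7.57 with the mimic and 7.34 with the control in U87MG, 7.61 and 7.16 in A172, and 8.31 and 7.58 in T98G. The mean difference was 0.47 ± 0.26 (SD, n = 3; limma adjusted p = 0.144). SEMA3C had 8.59 and 8.30 in U87MG, 10.30 and 10.06 in A172, and 9.34 and 8.82 in T98G, a difference of 0.35 ± 0.15 (limma adjusted p = 0.156). The mimic array was the higher in every line for both genes, and T98G had the widest step.

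NRP1 had 9.97 with the mimic and 10.22 with the control in U87MG, 8.89 and 9.18 in A172, and 8.74 and 9.04 in T98G. It was lower in 3 of 3 lines, by -0.28 ± 0.03 (SD, n = 3; limma adjusted p = 0.174), the narrowest spread among all 43 tested members. NRP2 showed no such pattern: its changes were -0.13 in U87MG, 0.26 in A172 and -0.27 in T98G. SEMA5A, a membrane semaphorin that binds PLXNB3, had 7.07 and 6.71 in U87MG, 7.43 and 7.23 in A172, and 7.50 and 7.25 in T98G, a difference of 0.27 ± 0.08 (adjusted p = 0.209).

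**Figure D4:**
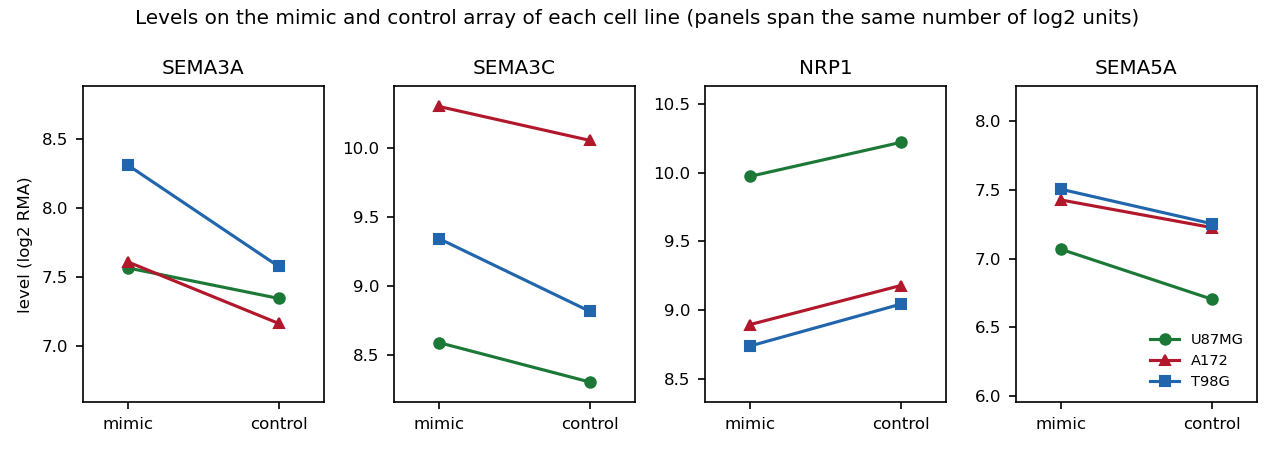
Levels (log2 RMA) of SEMA3A, SEMA3C, NRP1 and SEMA5A on the mimic array (left) and the control array (right), with 1 coloured line per cell line; each panel spans the same number of log2 units. The mimic array is the higher in each line for SEMA3A, SEMA3C and SEMA5A, and the lower in each line for NRP1.

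Whether these genes passed depended on how the variance is modelled. With a variance prior that follows expression, 3 members passed: SEMA3C (limma adjusted p = 0.0123), NRP1 (0.0146) and SEMA3A (0.0204), in a fit that called 471 genes in place of 153. SEMA3A passed also with the lowest 50% of genes left out (0.0459), and EFNA3 passed without the T98G arrays (change 0.66, adjusted p = 0.0406).

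Among the ephrins, EFNA3 had the largest change. It had 4.74 with the mimic and 4.16 with the control in U87MG, 5.84 and 5.11 in A172, and 5.23 and 5.13 in T98G, a difference of 0.47 ± 0.34 (limma adjusted p = 0.203). T98G differed by 0.09 only, and the U87MG control array lay below the filter level. The other ephrins differed by -0.12 to 0.16, and EFNB2, with its wide differences between lines, by 0.15 ± 0.19.

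Eph receptors held 3 positive and 5 negative changes, with a median of -0.02. EPHA1 had 4.39 and 4.10 in U87MG, 4.40 and 4.35 in A172, and 4.53 and 4.23 in T98G, mimic first. It was the only member whose 3 mimic arrays all lay above all 3 control arrays (1.4% of all tested genes did), and none lay below them all (1.56%). EPHA1 stood just above the filter by its mean, and its control arrays in U87MG and T98G lay below the filter level. Its adjusted p was 0.393. EPHA2 had 6.74 and 6.80 in U87MG, 6.92 and 7.18 in A172, and 6.88 and 7.13 in T98G, a difference of -0.19 ± 0.12 (adjusted p = 0.425).

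The dimmer semaphorins among the 12 members of smallest p had changes of 0.23 or 0.24 in size. SEMA3G had 4.77 and 4.40 in U87MG, 4.96 and 4.83 in A172, and 4.79 and 4.59 in T98G. SEMA6C had 4.58 and 4.51 in U87MG, 5.38 and 5.09 in A172, and 4.68 and 4.32 in T98G. SEMA6D, whose array values stand above, differed by -0.24 ± 0.20 and was lower in all 3 lines. Their limma adjusted p lay between 0.323 and 0.378. Of the 6 tested class 3 semaphorins, 5 had a positive mean change and SEMA3F a negative one, at -0.18 ± 0.19.

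Plexins held 6 positive and 3 negative changes, none with an unadjusted p under 0.05. PLXNA2 differed by -0.62 in A172 and -0.44 in T98G but by 0.10 in U87MG, a mean of -0.32 ± 0.37 (limma adjusted p = 0.44). PLXNC1 differed by -0.92 in T98G, the only line where it stood above the filter, and by -0.26 in A172 and 0.09 in U87MG (mean -0.36 ± 0.52, adjusted p = 0.496). PLXND1, the plexin with the widest distance between lines, differed by 0.00 ± 0.03. With 1 array per line and group, these differences between lines in the response were not tested.

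Over all members, 11 of the 43 tested were higher with the mimic in each of the 3 lines (25.6%, against 18.5% of all tested genes) and 4 were lower in each (9.30%, against 15.8%). The 11 were EFNA1, EFNA3, EPHA1, PLXNB1, SEMA3A, SEMA3B, SEMA3C, SEMA3D, SEMA3G, SEMA5A and SEMA6C. The 4 were EFNB1, EPHA2, NRP1 and SEMA6D. The 8 members below the filter had mean changes between -0.13 and 0.23.

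Proteins that act with or after these receptors were counted from 3 lists, and 2 of their 101 tested genes passed the mimic test (1.11% of all tested genes did). The lists were chosen with earlier results of these data known, so their counts are no independent comparison with all genes. Of 58 signal transducers of Eph, plexin and neuropilin receptors, 1 rose and none fell (29 of 58 changes positive, median 0.00). At an unadjusted p under 0.05 there were 16 of the 58 (27.6%, against 11.8% of all tested genes), 6 higher and 10 lower with the mimic. The riser was DPYSL3, a collapsin response mediator that relays semaphorin signals to the cytoskeleton. It had 7.51 with the mimic and 6.85 with the control in U87MG, 9.46 and 8.80 in A172, and 9.43 and 8.86 in T98G, a change of 0.64 ± 0.05 (SD, n = 3; limma adjusted p = 0.0202). The step was alike in the 3 lines, and mimic and control arrays overlapped, with U87MG the lowest line in both groups. It did not pass without A172 (0.62, adjusted p = 0.0712) or without U87MG (0.62, adjusted p = 0.164). MRAS, a RAS-related GTPase, and NCK1, an adaptor of Eph receptors, differed by -0.46 ± 0.08 and -0.42 ± 0.05 and did not pass (adjusted p = 0.0513 and 0.0611).

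Of 20 co-receptors, partners and sheddases, 1 rose and none fell, with 15 changes positive and a median of 0.04; 4 had an unadjusted p under 0.05, all higher with the mimic (20.0%, against 11.8%). The riser was MET, the hepatocyte growth factor receptor, which associates with B-type plexins; it changed by 1.14 ± 0.15 (limma adjusted p = 0.00574, and 0.0899 without U87MG). Next by p were MST1R, a related receptor, at 0.30 ± 0.26 and CD72, a SEMA4D receptor of B cells, at 0.26 ± 0.20 (adjusted p = 0.347 and 0.363). MST1R lay below the filter level on both U87MG arrays and the T98G control array. CD72 lay below it on both T98G arrays and on the control arrays of A172 and U87MG. The remaining gene was NRCAM, at 0.18 ± 0.02, which lay below it on all A172 and U87MG arrays. These changes thus rest partly on dim values. Of 23 genes of the slit, netrin and RGM families none passed, and 2 had an unadjusted p under 0.05 (8.70%, against 11.8%), with a median of 0.02 and 14 changes positive. SRGAP1, which acts after ROBO receptors, was at 0.30 ± 0.21, FLRT2 at 0.29 ± 0.25 and the netrin receptor UNC5C at 0.16 ± 0.11.

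Between lines 47 of the 58 transducers, 16 of the 20 partners and 15 of the 23 genes of the other families passed the F test, read against the same 67.5%. L1CAM, an adhesion molecule that joins NRP1 in the SEMA3A receptor, averaged 4.75 in U87MG, 10.12 in A172 and 7.65 in T98G. Several members had this order, PLXND1 and EPHB4 among them. FYN, a kinase activated by plexins and ephrins, averaged 8.04 in U87MG, 5.97 in A172 and 4.33 in T98G. EFNB2 and SEMA4F were among the members with that order. Further genes with wide distances were NRCAM, highest in T98G (7.22, against 3.08 in U87MG and 2.81 in A172), VAV3, a guanine nucleotide exchange factor (5.98 in U87MG, 2.75 in A172 and 5.72 in T98G), and CSPG4, a proteoglycan of glial progenitors (6.23, 7.71 and 4.37 in the same lines). DPYSL5, another collapsin response mediator, averaged 4.03 in U87MG, 6.79 in A172 and 4.05 in T98G. Among the other guidance families, SLIT2 averaged 4.76 in U87MG, 8.21 in A172 and 8.58 in T98G, UNC5C 3.47, 7.10 and 4.21, and NTNG1 7.23, 3.86 and 3.82. Both arrays lay below the filter level for NRCAM in U87MG and A172, VAV3 in A172, and NTNG1 in A172 and T98G. The same held for DPYSL5 and UNC5C in U87MG and T98G. In T98G the mimic array of FYN and the control array of CSPG4 lay below it too. The sizes of these steps are therefore uncertain, and NRCAM, NTNG1, DPYSL5 and UNC5C passed the filter only through their highest line.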

How the data were processed

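The 6 samples were hybridised to Human Gene 1.0 ST arrays of Affymetrix, which use 1 colour. The authors deposited log2 values made with RMA in the package oligo under R 3.0.1, per the submitters' processing notes; RMA corrects background, quantile-normalizes and summarizes probes. No source used here gives filters or batches. The values carry no detection call, and the number of arrays limits the precision.

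Probe sets were named through the platform annotation (19460 with 1 symbol, 1754 with several, 12083 with none listed); 19429 were updated through the RefSeq gene table (GRCh38.p14, names and gene order only). All tests were two-sided linear models of limma 3.58.1 (lmFit, eBayes; R 4.3.3) with Benjamini-Hochberg adjustment over 13812 genes: mimic was compared with control with cell line as a block, and lines by F test and pairwise contrasts with transfection as a term. The block rests on the cell line each label gives; deviations from group means correlated within a line at 0.951 to 0.958. Both fits were run on simulated data whose variances came from the fitted prior. Such a run cannot judge the spread between cultures or responses that differ between lines. SD is over the 3 within-line changes. Members and lists were chosen with earlier results of these data known. Named in full were the 12 members of smallest mimic p and the 14 of largest line distance among F-test calls, and in each list the 3 of smallest p and 3 of largest distance. Alternatives changed filter, variance prior, normalization, probe set choice, model terms and arrays. No set test was run.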

Additional observations from a re-analysis of the deposited data

Results flagged for a closer look

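In 2 tested guidance genes the lines moved in opposite directions with the mimic by at least 0.25 log2 units on each side. EPHA10 was higher by 0.33 in T98G and differed by -0.28 in U87MG, 0.61 apart, with A172 at -0.22; its dimmer probe set lay below the filter level. NRP2 was higher by 0.26 in A172 and differed by -0.27 in T98G, 0.53 apart, with U87MG at -0.13; its dimmer probe set did not repeat the difference in T98G, with 6.73 on the mimic and 6.76 on the control array. Each line has 1 array per group, so neither difference was tested.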

How the results depend on the processing

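All F-test calls of the 14 members named for their line distance held under every alternative in which they were tested. The highest and the lowest line were the same too, except that without the U87MG control array A172 was lowest for PLXNC1 (U87MG minus A172 0.01) and that without the A172 mimic array T98G was highest for EFNA4 (A172 minus T98G -0.0018). The number of members called between lines was 34 and lay between 32 and 36 otherwise, leaving out any 1 array included (32 to 35), except for 20 of the 21 members tested with the lowest 50% of genes left out. For the mimic, 0 members passed in the paired fit, against 1 with the lowest 50% left out, 3 with a prior that follows expression, and 0 to 1 without 1 line (1 without T98G, EFNA3). At an unadjusted p there were 9, against 5 of 21 with the lowest 50% left out, 7 to 10 without 1 line, and 0 with no replicate block, that is without the cell line in the model. The related lists gave 2 genes, against 6 with the lowest 50% left out, 8 with a prior that follows expression, 0 with no replicate block, and 0 to 2 without 1 line (1 without A172 and 0 without U87MG), and DPYSL3 and MET kept a positive change throughout. Among all genes 153 passed, against 60 with no filter, 360, 471 and 0 under the same 3 settings, 64 without A172 and 0 without U87MG. The median change of the members stayed between -0.03 and 0.02, with either sign. No change of the 12 members named for the mimic turned direction. Fits without a line have fewer residual degrees of freedom, and the lowest-50% fit tests fewer genes; no other cause was tested.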
